A study of Mus musculus with 18 samples.

Results

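RNA-seq measured WT and DKI cells derived from monocytes (MDCs) that had been cultured for 6 days with 20 ng/mL GM-CSF. The comparison takes 6 of the 18 libraries of the study, 3 per genotype, and the 12 others are WT and DKI cells of day 0 and day 3. In DKI mice both *Stat5a* and *Stat5b* hold knockin mutations of their N-domain, with which STAT5 can still pair into dimers but cannot join dimers into tetramers. Both groups were of the C57BL/6 strain by the labels (C57BL/6J for DKI mice in the methods), received the same cytokine dose and were cultured from Ly6C+ CCR2+ monocytes enriched by negative selection, a step that enriches a cell type without making it pure, and the age of the mice and whether a library pools animals are not given in the sources used here. The members are the genes with a mean above 2 RPKM (reads scaled to the length of a gene and to the mapped reads of a library) in WT or DKI MDCs, which were 9842 of the 20298 genes in the table. Of these, 50 are the genes that the study drew in its heatmaps of dendritic cell and macrophage genes. They stay in the fit and its counts, and the genes described one by one are outside them.

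The sample labels give liver as the tissue, whereas the series description and the methods give bone marrow. Of 11 hepatocyte markers, 9 were at 0 RPKM in all 6 libraries, among them *Alb*, *Apoa1* and *Ttr*, and *Trf*, which myeloid cells also express, was the 1 marker above 1 RPKM. All 10 monocyte and macrophage markers reached 2 RPKM in at least 1 library. Their summed level was 3816 to 5507 RPKM in WT and 11997 to 16942 RPKM in DKI MDCs, mostly from *Lyz2*. Of the 10, 2 had a negative log2 fold change in DKI against WT, *Ccr2* and *Spi1*.

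GM-CSF binds a receptor of an alpha chain and the common beta chain, which carries the kinase JAK2. JAK2 phosphorylates STAT5A and STAT5B, which pair as dimers and bind DNA at palindromic sites, and tetramers form where dimers bind at neighbouring sites. The genes that this pathway switches on include those of its own inhibitors, such as *Cish* and the *Socs* genes. In cultures of monocytes, GM-CSF drives cells toward a dendritic state, and macrophages can arise in the same wells.

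Expression was compared as log2(RPKM + 1), on which scale the change of genes with low RPKM is understated, and all fold changes are DKI against WT. A gene was called at a Benjamini-Hochberg adjusted p under 0.05 from limma and a fold change above 1.5. SE is the standard error, and the replicate block is a fit that pairs libraries by their number. Gene positions are those of RefSeq on GRCm38.p6.

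The promoters of 3 of the 7 called genes with 2 copies of the letters TTCNNNGAA are shown first. The paper states that STAT5 tetramers can bind non-consensus sites of lower affinity at a suitable spacing. The search here took the usual letters at any distance within a promoter, so 2 copies are not a measure of tetramer sites. TTCNNNGAA is the usual core of a STAT site and reads the same on both strands. The sequences are from RefSeq (GRCm38.p6), run 5′ to 3′ from 250 bases before to 50 bases after the annotated start, and carry the copies in capitals. *Cish* and *Lta* were lower in DKI MDCs, and *Emp1*, chosen after its values were seen, was higher.
Cish chr9:107296409-107296708 (+): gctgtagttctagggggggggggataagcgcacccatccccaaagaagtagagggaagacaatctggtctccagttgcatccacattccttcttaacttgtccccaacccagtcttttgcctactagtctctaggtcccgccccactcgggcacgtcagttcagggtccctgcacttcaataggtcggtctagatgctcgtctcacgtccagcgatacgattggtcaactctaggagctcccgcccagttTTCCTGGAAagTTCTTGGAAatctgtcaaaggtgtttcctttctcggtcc
Lta chr17:35205302-35205601 (-): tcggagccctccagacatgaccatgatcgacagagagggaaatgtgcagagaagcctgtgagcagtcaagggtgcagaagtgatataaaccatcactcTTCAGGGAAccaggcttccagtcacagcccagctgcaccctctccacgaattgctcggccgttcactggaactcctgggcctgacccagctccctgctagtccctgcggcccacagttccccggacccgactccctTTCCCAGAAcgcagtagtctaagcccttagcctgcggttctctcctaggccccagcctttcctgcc
Emp1 chr6:135362681-135362980 (+): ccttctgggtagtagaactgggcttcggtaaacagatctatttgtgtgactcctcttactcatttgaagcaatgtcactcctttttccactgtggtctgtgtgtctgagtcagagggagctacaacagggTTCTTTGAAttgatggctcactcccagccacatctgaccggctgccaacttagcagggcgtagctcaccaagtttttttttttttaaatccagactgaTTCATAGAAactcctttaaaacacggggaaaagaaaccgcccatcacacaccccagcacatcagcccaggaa
The copies in *Cish* begin at bases 251 and 262 of the window, those in *Lta* at bases 99 and 235, and those in *Emp1* at bases 131 and 229. Of these pairs only that of *Cish* lies close together. *Cish* encodes an inhibitor of STAT5 signalling, *Lta* a secreted ligand of the TNF family and *Emp1* a membrane protein. *Emp1* was at 28.3, 34.1 and 11.7 RPKM in WT libraries and 197, 227 and 189 RPKM in DKI libraries (log2 fold change 3.12, SE 0.38, adjusted p = 0.0136). A promoter was at hand for 7942 of the fitted genes, and for genes with several starts the window with the most copies was taken. At least 1 copy was in 663 of these (8.35%), in 39 of the 382 with a promoter that were lower (10.2%) and in 23 of the 218 that were higher (10.6%). Windows with 2 or more copies were 41 of the 7942 (0.516%), 3 of the 382 lower (0.785%) and 4 of the 218 higher (1.83%). The other higher genes were *Serpinb6a*, *Tlr6* and *Gdpd1*, with log2 fold changes of 1.66, 1.19 and 1.85. The third lower gene was *Il18r1*, a chain of the interleukin-18 receptor, at 13.5, 7.37 and 11.2 RPKM in WT and 0.828, 3.01 and 2.01 RPKM in DKI MDCs (log2 fold change −2.02, adjusted p = 0.0273, 0.0541 with the replicate block). Of all 32851 promoters of this length in the table, 8.30% held a copy. A match of letters is not a measured binding site, and no match says only that these letters are absent from the window.

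In DKI MDCs, expression fell for 474 of the 9842 genes (4.82%) and rose for 268 (2.72%), 742 in all (7.54%), and 2778 had an unadjusted p under 0.05. In each of the 742 genes the ranges of the genotypes lay apart, which held for 37.2% of all fitted genes. A change of at least 2-fold was found in 612 of the called genes, at least 4-fold in 236 and at least 8-fold in 76, of which 42 were lower and 34 higher. Outside the 50 heatmap genes, of which 30 were called, 461 genes were lower and 251 higher. In bulk RNA, fewer cells of a type and less RNA per cell cannot be told apart.

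**Figure D1:**
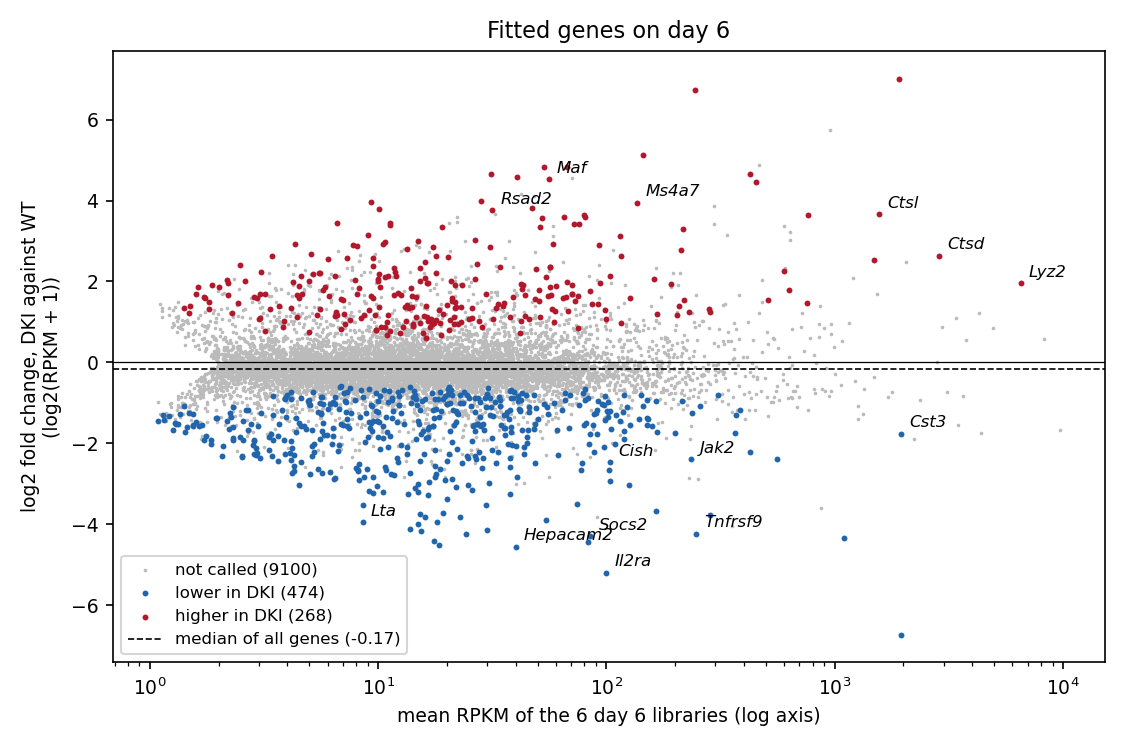
Log2 fold change of DKI against WT MDCs on day 6 for each fitted gene (y axis, log2(RPKM + 1)) against its mean RPKM in the 6 libraries (x axis, log scale). Blue points are the 474 genes lower in DKI, red points the 268 higher, and the dashed line at −0.17 is the median of all fitted genes, which lies below 0 along the whole range of levels.

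The whole distribution was shifted. The median log2 fold change of all fitted genes was −0.17, and 66.5% of the genes had a negative value. The shift was of like size at all levels, with a median of −0.15 in the 20% of genes with the lowest mean RPKM (1.09 to 4.91 RPKM) and −0.19 in the 20% with the highest (38.8 to 9665 RPKM). Called genes were 130 of the 1969 in the former and 197 of the 1969 in the latter. After the median of each library was set to a common level, 285 genes (2.9%) had fallen and 323 (3.28%) had risen, so that the larger direction turned. Both scalings called the same genes in 285 lower and 264 higher cases. Quantile normalization gave 310 lower and 342 higher genes. The median over all genes was −0.02 after centring and −0.03 after quantile normalization, and the fold changes below are to be read against the shift of −0.17.

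The threshold on RPKM let genes in through either group. Of the fitted genes, 9032 had a mean above 2 RPKM in both genotypes, and 352 of these were lower and 208 higher. A further 464 genes passed the threshold in WT only, with 122 called, and 346 in DKI only, with 60 called. In these classes the direction follows from the rule. Of the genes named here, *Folr2*, *Ednrb*, *Slc28a2*, *Csf3r*, *Oas1g*, *Oas2*, *C5ar2*, *Ms4a14* and *Nr1d1* passed in DKI only. Those that passed in WT only were *Lta*, *Mycl*, *Enah*, *Cd300e*, *Septin4*, *Car4*, *Adora2a*, *Il18r1*, *Tyro3* and, of the mitochondrial genome, *ATP6*, *COX2*, *COX3* and *ND3*. The p-values of all these genes are given as description, and the list counts that include them are not support for a direction. Protein-coding genes made up 9763 of the fitted genes and 736 of the called genes.

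DKI libraries differed more among themselves than WT libraries. The median SD of a gene over the 3 libraries was 0.28 in DKI and 0.20 in WT on the log2 scale, and the SD was larger in DKI for 66.7% of the genes. Across genes, log2(RPKM + 1) correlated between 0.951 and 0.957 among WT libraries and between 0.890 and 0.921 among DKI libraries. DKI replicate 2 correlated with WT replicate 2 at 0.926 across genes, which are not independent replicates. In that pair the SD of the differences over genes was 0.65, against 1.03 in pair 1 and 0.99 in pair 3. Depth, estimated from the RPKM that 1 read gives, was between 30.05 M and 42.94 M reads, at the lowest of which a count of 3 reads equals 0.0998 RPKM for a gene of 1 kb.

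The number of calls rested on single libraries. Without WT replicate 1, 68 genes were lower and 38 higher. These numbers were 76 and 31 without WT replicate 3, 132 and 119 without DKI replicate 1, and 63 and 27 without DKI replicate 3. They were 355 and 229 without WT replicate 2. Leaving out DKI replicate 2 raised them to 655 and 329. Blocking on the replicate number gave 434 lower and 285 higher genes, and 491 of the 742 genes were among them. There were 62 genes, 44 lower and 18 higher, that were called with all libraries and under each of the 6 omissions. The genes named here that are among these 62 are, outside the heatmaps, *Il2ra*, *Socs2*, *Cish*, *Fscn1*, *Cacnb3*, *Lta*, *Hepacam2*, *Mycl*, *Enah*, *Tarm1*, *Olr1* and *Slc27a3* among the lower genes and *Ctsl*, *Cd300ld*, *Ecm1*, *Hgf* and *Slc28a2* among the higher genes. Each other called gene outside the heatmaps that is named here lost its call when at least 1 of the 6 libraries was left out.

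**Figure D2:**
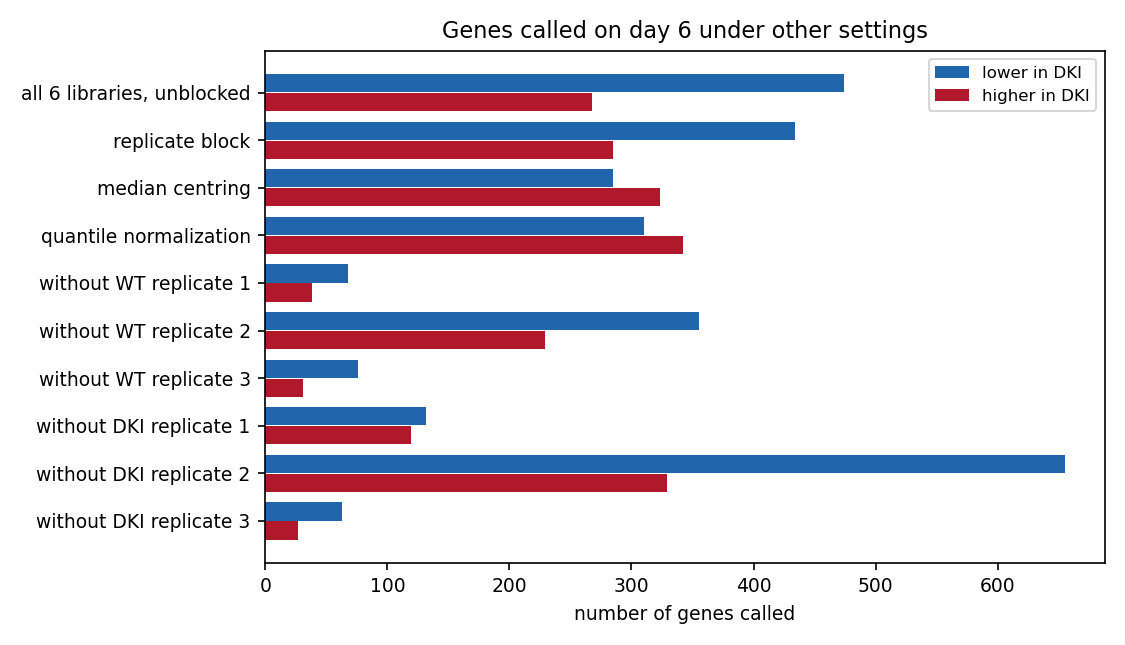
Number of genes called lower (blue) and higher (red) in DKI MDCs on day 6 with all 6 libraries and under other settings. The counts fall to 63 lower and 27 higher without DKI replicate 3 and rise to 655 and 329 without DKI replicate 2, and higher genes outnumber lower ones after median centring and quantile normalization.

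Among the genes of the GM-CSF receptor and JAK-STAT pathway, 8 of the 30 fitted members were lower and 0 were higher, against 4.82% and 2.72% of all fitted genes, and 22 did not pass the test. The list had a median log2 fold change of −0.48, against −0.17 for all genes, and 24 members were negative. The largest decrease outside the heatmap genes was that of *Il2ra*, the alpha chain of the interleukin-2 receptor and a known target of STAT5 (Entrez gene 16184, chromosome 2, 11642792 to 11693194). *Il2ra* was at 257, 147 and 181 RPKM in WT libraries and 3.58, 4.29 and 4.78 RPKM in DKI libraries (log2 fold change −5.20, SE 0.23, adjusted p = 0.00194). The lowest WT library was far above the highest DKI library, and the 3 DKI values were close to each other. Of the 10 fitted STAT5 targets in the list, *Il2ra* was the 1 called. The median of these targets was −0.35, and 8 of them were negative. 

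The inhibitors of the pathway formed the role with the most negative median, −1.46 over 6 fitted genes, of which 3 were called. *Socs2* (Entrez gene 216233, chromosome 10, 95383903 to 95417321), which inhibits cytokine receptors, was at 177, 114 and 194 RPKM in WT libraries and 9.9, 3.23 and 10.3 RPKM in DKI libraries (log2 fold change −4.30, SE 0.43, adjusted p = 0.00803). *Cish* (Entrez gene 12700, chromosome 9, 107296659 to 107302784) was at 189, 151 and 186 RPKM in WT libraries and 27.9, 40.03 and 25.8 RPKM in DKI libraries (log2 fold change −2.47, SE 0.21, adjusted p = 0.00673). The DKI values of *Cish* did not fall to 0, whereas those of *Socs2* were lowest in DKI replicate 2. *Socs1*, an inhibitor of JAK kinases that is named after its values were seen, was at 71.9, 70.6 and 75.1 RPKM in WT and 30.5, 25.6 and 14.6 RPKM in DKI MDCs (log2 fold change −1.64, SE 0.27, adjusted p = 0.0268).

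The kinase and the receptor chains differed in size and call. *Jak2* (Entrez gene 16452, chromosome 19, 29251803 to 29313095) was at 373, 286 and 528 RPKM in WT libraries and 52.9, 97.9 and 74 RPKM in DKI libraries (log2 fold change −2.38, SE 0.32, adjusted p = 0.0162). *Csf2rb2* was at 428, 380.4 and 372 RPKM in WT and 205, 235 and 233 RPKM in DKI MDCs (log2 fold change −0.81, adjusted p = 0.0410), but was not called with the replicate block (adjusted p = 0.0667) or after median centring (adjusted p = 0.0698). *Csf2rb* was at 579, 643 and 533 RPKM in WT and 277, 457 and 359.9 RPKM in DKI MDCs and was not called (log2 fold change −0.71, SE 0.24, adjusted p = 0.113, 95% interval −1.28 to −0.14). *Csf2rb* and *Csf2rb2* are near copies, and reads between them cannot be assigned with certainty. 

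Of the factors, *Stat4* was at 51.4, 29 and 82.6 RPKM in WT libraries and 6.47, 1.82 and 11.9 RPKM in DKI libraries (log2 fold change −2.97, SE 0.62, adjusted p = 0.0410). DKI replicate 2 was the lowest and DKI replicate 3 the highest of the DKI values, and after median centring the adjusted p was 0.0583. *Stat5a*, one of the mutated genes, had a log2 fold change of −1.68 (adjusted p = 0.0357, 0.0516 with the replicate block), and *Stat5b*, the other, of −0.68 (adjusted p = 0.0767, 95% interval −1.14 to −0.22). The mutations change amino acids, so that these levels do not check the genotype. When 1 library was left out, between 3 and 7 members of the list were called, with 3 lower members without WT replicate 1 and also without WT replicate 3, 4 without DKI replicate 3 and 5 without DKI replicate 1.

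**Figure D3:**
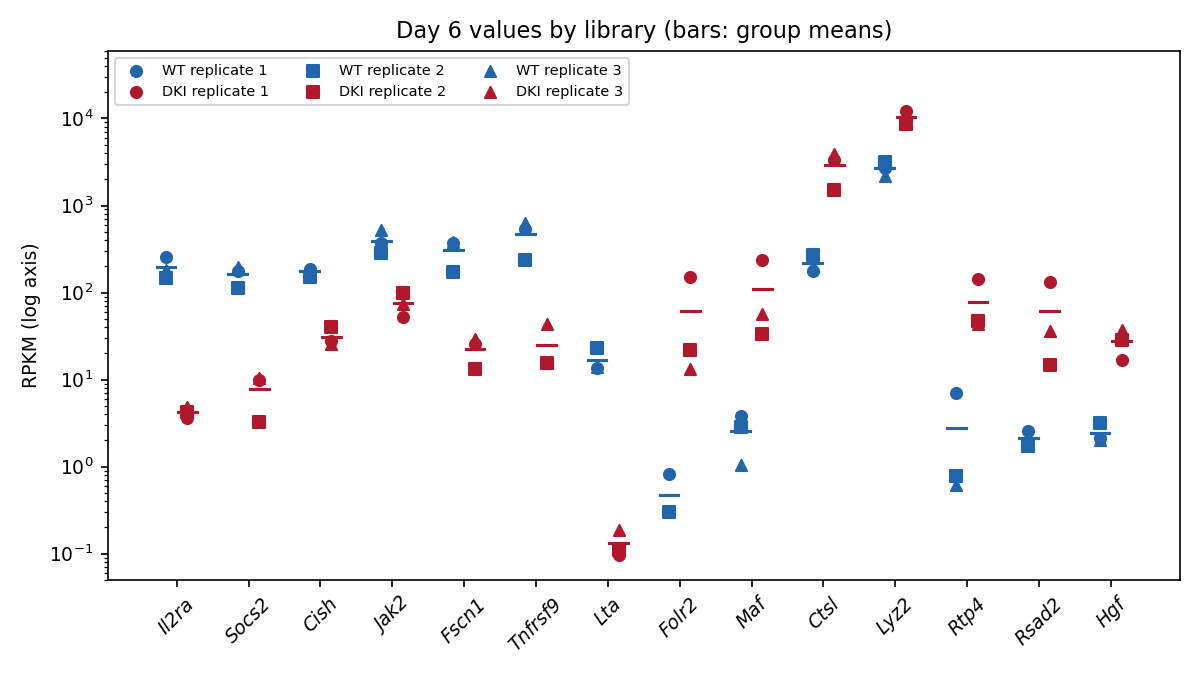
RPKM of 14 genes in each day 6 library (y axis, log scale), with WT in blue and DKI in red, a marker shape per replicate number and a bar at each group mean. For each gene the WT and DKI values do not overlap, and DKI replicate 1 is the highest library for *Folr2*, *Maf*, *Rtp4* and *Rsad2*.

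Of 23 fitted genes of dendritic cell migration and maturation, all outside the heatmaps, 7 were lower and 0 higher, with a median of −1.06. Among all fitted genes 4.82% were lower and 2.72% higher. *Fscn1*, the actin bundler fascin of mature dendritic cells (Entrez gene 14086, chromosome 5, 142960355 to 142973189), was at 368, 173 and 377 RPKM in WT libraries and 25.9, 13.2 and 29.1 RPKM in DKI libraries (log2 fold change −3.68, SE 0.41, adjusted p = 0.0107). *Cacnb3*, a calcium channel subunit found in migratory dendritic cells, was at 86.6, 96.8 and 123 RPKM in WT libraries and 6.77, 3.27 and 8.61 RPKM in DKI libraries (log2 fold change −3.90, SE 0.32, adjusted p = 0.00637). *Tmem123*, a membrane protein, was the most abundant of the called members, at 906, 524 and 1412 RPKM in WT libraries and 144, 147 and 213 RPKM in DKI libraries (log2 fold change −2.40, SE 0.39, adjusted p = 0.0261). WT replicate 2 had the lowest WT value of *Fscn1* and *Tmem123*, and the groups stayed apart. The other called members were *Ezr*, *Pdcd1lg2*, *Socs2* and *Traf1*, of which *Socs2* is also in the JAK-STAT list. *Zbtb46*, a factor of classical dendritic cells, belongs to the list of dendritic cell lineage genes. Of its 21 fitted members 1 was lower and 2 were higher, against 4.82% and 2.72% of all fitted genes. The higher members were *Zeb2*, a transcription factor, and *Sirpa*, a surface marker. With the replicate block 3 members were lower and 1 was higher. *Zbtb46* was at 13.7, 12.7 and 16.6 RPKM in WT and 2.45, 6.59 and 1.93 RPKM in DKI MDCs (log2 fold change −1.84, adjusted p = 0.0367, 0.0551 with the replicate block). None of the lineage list was called by limma without WT replicate 1, WT replicate 3 or DKI replicate 3. Without 1 library between 3 and 8 of the 23 genes were called, with 3 without WT replicate 1 and 4 without WT replicate 3, DKI replicate 1 or DKI replicate 3.

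NF-kappaB genes had negative values in all 12 fitted members, against 66.5% of all fitted genes, with a median of −1.25. Of the 12, 4 were called lower, against 4.82% of all fitted genes. They were the subunit genes *Rel*, *Nfkb1* and *Nfkb2* and the inhibitor gene *Nfkbia*. *Rel* was at 49.4, 38.6 and 94.7 RPKM in WT libraries and 9.9, 14.6 and 16.1 RPKM in DKI libraries (log2 fold change −2.01, SE 0.36, adjusted p = 0.0296). *Nfkb1* was at 114, 88.9 and 162 RPKM in WT and 45.6, 43.2 and 35.1 RPKM in DKI MDCs (log2 fold change −1.50, SE 0.25, adjusted p = 0.0268). *Nfkbia* had a log2 fold change of −1.72 (adjusted p = 0.0405, 0.0643 after median centring) and *Nfkb2* of −1.66 (adjusted p = 0.0476, 0.0536 with the replicate block). After centring, 2 of the 4 were called. In all 4 genes WT replicate 3 was the highest library. Without WT replicate 1, WT replicate 3 or DKI replicate 3 none of the 12 was called by limma, and without DKI replicate 1 or DKI replicate 2 there were 2. *Map3k14*, which encodes the kinase of the noncanonical NF-kappaB pathway and is not in that list, was at 35.2, 29.6 and 60.1 RPKM in WT and 5.72, 8.21 and 7.69 RPKM in DKI MDCs (log2 fold change −2.32, SE 0.28, adjusted p = 0.0136).

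Genes of the TNF family, taken by their symbols after values were seen, went both ways, with 5 of 25 fitted lower, 3 higher and 17 not called, against 4.82% lower and 2.72% higher of all fitted genes. *Tnfrsf9*, the co-stimulatory receptor 4-1BB (Entrez gene 21942, chromosome 4, 150920155 to 150946104), was at 543, 239 and 621 RPKM in WT libraries and 15.7, 15.5 and 43.5 RPKM in DKI libraries (log2 fold change −4.23, SE 0.52, adjusted p = 0.0136). *Lta* (Entrez gene 16992, chromosome 17, 35203165 to 35205578) was at 13.7, 23.2 and 13.9 RPKM in WT libraries and 0.0962, 0.111 and 0.188 RPKM in DKI libraries (log2 fold change −3.95, SE 0.23, adjusted p = 0.00430). The DKI values of *Lta* were near the level of 3 reads on 1 kb, and their size is uncertain. *Tnfsf4*, the ligand OX40L, was at 13.4, 30.6 and 55.1 RPKM in WT and 6.0, 4.64 and 1.76 RPKM in DKI MDCs (log2 fold change −2.62, adjusted p = 0.0431), and was not called with the replicate block (adjusted p = 0.0756) or after centring (adjusted p = 0.0517).

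Other large decreases were of genes with varied roles. *Hepacam2*, which encodes an adhesion protein, was at 86.4, 56.1 and 89.7 RPKM in WT libraries and 0.982, 4.15 and 2.4 RPKM in DKI libraries (log2 fold change −4.56, SE 0.37, adjusted p = 0.00637). *Mycl*, the Myc family factor expressed in dendritic cells, was at 33.8, 16.5 and 40.1 RPKM in WT and 0.703, 0.498 and 0.668 RPKM in DKI MDCs (log2 fold change −4.17, SE 0.32, adjusted p = 0.00623). *Enah*, a regulator of actin filaments, was at 46.4, 30.7 and 27.5 RPKM in WT and 1.82, 1.48 and 0.653 RPKM in DKI MDCs (log2 fold change −3.95, SE 0.28, adjusted p = 0.00623). The WT values of these 3 genes were at least 16.5 RPKM and their DKI values at most 4.15 RPKM. *Cd300e*, an activating receptor of monocytes, fell by 4.51 on the log2 scale, with WT values of 70.2, 34.9 and 5.34 RPKM that differed widely. *Septin4* had a log2 fold change of −4.12 and *Car4*, a carbonic anhydrase, of −4.0. *Bmf* and *Bcl2a1d*, which promote and inhibit apoptosis, changed by −2.35 and −2.07, and *Bcl2a1d* has near copies. *Adora2a*, an adenosine receptor, changed by −2.84, and *Olr1*, the scavenger receptor LOX-1 for oxidized lipoprotein, by −2.56.

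Of the called genes outside the heatmaps, the largest decrease in RPKM was that of *Cst3*, the protease inhibitor cystatin C that is abundant in dendritic cells. *Cst3* was at 2728, 2335 and 3912 RPKM in WT libraries and 862, 1264 and 584 RPKM in DKI libraries (log2 fold change −1.76, SE 0.36, adjusted p = 0.0403, 0.0714 with the replicate block). *Napsa*, an aspartic protease, was at 905, 458 and 737 RPKM in WT libraries and 121, 206 and 118 RPKM in DKI libraries (log2 fold change −2.22, SE 0.34, adjusted p = 0.0235). *Syngr2*, a vesicle protein, had a log2 fold change of −1.74 (adjusted p = 0.0303, 0.0551 with the replicate block). *Tarm1*, a receptor of myeloid cells, was at 237, 191 and 240.2 RPKM in WT and 15.3, 33 and 36 RPKM in DKI MDCs (log2 fold change −3.02, SE 0.33, adjusted p = 0.00984). The 3 DKI values of each gene were below its lowest WT value.

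Of 28 fitted regulators and markers of the macrophage lineage, 7 were higher, 1 was lower and 20 did not pass the test, with a median of 1.22. Among all fitted genes 2.72% were higher and 4.82% lower. The list holds *Fcgr1*, which is also a heatmap gene and was not called. *Maf*, the transcription factor c-Maf of tissue macrophages (Entrez gene 17132, chromosome 8, 115703253 to 115706894), was at 3.8, 2.83 and 1.03 RPKM in WT libraries and 237, 33.5 and 56.2 RPKM in DKI libraries (log2 fold change 4.54, SE 0.73, adjusted p = 0.0252). *Folr2*, a folate receptor of macrophages (Entrez gene 14276, chromosome 7, 101839988 to 101857190), was at 0.82, 0.302 and 0.306 RPKM in WT libraries and 151, 21.9 and 13.3 RPKM in DKI libraries (log2 fold change 4.66, SE 0.84, adjusted p = 0.0303). DKI replicate 1 was several times above the other DKI libraries for both genes. *Cd300ld* was at 31.5, 19 and 15.2 RPKM in WT libraries and 147, 169 and 176 RPKM in DKI libraries and its DKI values were close together (log2 fold change 2.91, SE 0.27, adjusted p = 0.00770). *Cd68*, a lysosomal protein of macrophages, was at 274, 347 and 229 RPKM in WT and 1171, 858 and 922 RPKM in DKI MDCs (log2 fold change 1.8, SE 0.24, adjusted p = 0.0162). *Clec7a*, the beta-glucan receptor Dectin-1, was at 235, 387 and 188 RPKM in WT and 781, 728 and 729.8 RPKM in DKI MDCs (log2 fold change 1.53, SE 0.29, adjusted p = 0.0341). The other called members were *Mitf* and *Pparg*, both higher, and *Tyro3*, a receptor for apoptotic cells, which was lower with at most 2.63 RPKM in any library and was not called with the replicate block (adjusted p = 0.0527). Without WT replicate 1, WT replicate 3 or DKI replicate 3, 1 of the higher members was called, and without DKI replicate 1 there were 4.

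*Lyz2*, the lysozyme of myeloid cells, was the most abundant transcript in each DKI library and rose most in RPKM. It was at 2681, 3159.5 and 2201 RPKM in WT libraries and 12236, 8638 and 10214 RPKM in DKI libraries (log2 fold change 1.95, SE 0.28, adjusted p = 0.0197). The reads of *Lyz2* cannot be told with certainty from those of its near copy *Lyz1*. *Trem2*, a lipid receptor of macrophages, was at 66.5, 121 and 58.2 RPKM in WT libraries and 300.3, 298 and 304 RPKM in DKI libraries (log2 fold change 1.94, SE 0.29, adjusted p = 0.0217), with nearly equal values in the DKI libraries. All 8 fitted genes of the MS4A family had positive values, with a median of 2.44. Of the 8, 3 were called higher, against 2.72% of all fitted genes. *Ms4a7* was at 17.9, 10.5 and 4.68 RPKM in WT libraries and 603, 116 and 64.2 RPKM in DKI libraries (log2 fold change 3.95, SE 0.86, adjusted p = 0.0452), *Ms4a6d* had a log2 fold change of 1.55 (adjusted p = 0.0379, 0.0573 with the replicate block), and *Ms4a14* was the third. In 5 of the 6 omissions of a library at most 1 MS4A gene was called, and without DKI replicate 2 there were 3. *Ms4a7* was called in 0 of the 6, with log2 fold changes between 3.02 and 4.63.

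The lysosomal proteases held some of the most abundant higher genes. Of 13 fitted cathepsins 5 were called higher and 0 lower, against 2.72% and 4.82% of all fitted genes. All 13 had positive values, and the median was 1.07. *Ctsl*, which encodes cathepsin L (Entrez gene 13039, chromosome 13, 64361890 to 64370772), was at 175, 271 and 203 RPKM in WT libraries and 3307, 1523 and 3894 RPKM in DKI libraries (log2 fold change 3.66, SE 0.40, adjusted p = 0.00978). *Ctsb*, cathepsin B, was at 368, 551 and 357 RPKM in WT libraries and 3695, 1775 and 2138 RPKM in DKI libraries (log2 fold change 2.53, SE 0.35, adjusted p = 0.0183). *Ctsd*, cathepsin D, was at 478, 1133 and 718 RPKM in WT libraries and 6725, 2567 and 5484 RPKM in DKI libraries (log2 fold change 2.64, SE 0.48, adjusted p = 0.0303, 0.0617 with the replicate block). In each of these genes DKI replicate 2 was the lowest DKI library and was above the highest WT library. *Ctss*, cathepsin S, which cuts the invariant chain, was the most abundant cathepsin but was not called, at 2449, 3546 and 1885 RPKM in WT and 5260.5, 6133 and 6532 RPKM in DKI MDCs (log2 fold change 1.23, SE 0.31, adjusted p = 0.0623, 95% interval 0.48 to 1.97). *Ctsa* and *Ctso* were the other called members, and with the replicate block 3 cathepsins were called. *Lgmn*, an asparagine protease that also processes antigen, was at 154, 205 and 208 RPKM in WT and 1691, 596 and 734 RPKM in DKI MDCs (log2 fold change 2.27, adjusted p = 0.0303, 0.0533 with the replicate block). *Lamp1*, a protein of the lysosomal membrane, had a log2 fold change of 1.47 (adjusted p = 0.0453, 0.0574 with the replicate block). *Psap*, the precursor of the saposins, was not called (log2 fold change 0.84, SE 0.34, adjusted p = 0.169). The summed level of the 18 cathepsins in the table was 5041, 6992 and 4597 RPKM in WT and 21492, 13666 and 20058 RPKM in DKI MDCs. Without 1 library between 1 and 4 cathepsins were called, with 1 without WT replicate 1, WT replicate 3 or DKI replicate 3 and 2 without DKI replicate 1.

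Interferon-stimulated genes had their highest summed level in DKI replicate 1. Of 46 fitted members 43 had positive values, and the median was 1.76. Of the 46, 6 passed the test, all higher, against 2.72% higher of all fitted genes, and 40 did not. The summed level of the list was 1122, 679 and 965 RPKM in WT and 6931, 1434 and 1715 RPKM in DKI MDCs, so that DKI replicate 1 stood apart. The list medians of the same-numbered pairs were 2.81, 1.07 and 0.98. *Rtp4*, an interferon-induced gene (Entrez gene 67775, chromosome 16, 23520219 to 23614222), was at 6.92, 0.77 and 0.609 RPKM in WT libraries and 145, 46.9 and 44.1 RPKM in DKI libraries (log2 fold change 4.59, SE 0.73, adjusted p = 0.0254). *Oasl2*, of the family of oligoadenylate synthetases, was at 7.72, 3.17 and 2.31 RPKM in WT libraries and 186, 42.5 and 41.4 RPKM in DKI libraries (log2 fold change 3.83, SE 0.66, adjusted p = 0.0279). *Rsad2*, the antiviral enzyme viperin (Entrez gene 58185, chromosome 12, 26442743 to 26456452), was at 2.55, 1.74 and 2.12 RPKM in WT libraries and 132, 14.7 and 36.1 RPKM in DKI libraries (log2 fold change 3.77, SE 0.72, adjusted p = 0.0341). In each of them the lowest DKI value was still several times the highest WT value. *Oas2* was at 0.192, 0.181 and 0.094 RPKM in WT and 12.3, 8.94 and 4.16 RPKM in DKI MDCs (log2 fold change 2.93, SE 0.36, adjusted p = 0.0136), and *Oas1g* and *Slfn5* were the other called members. Genes of the OAS family share sequence, and their separate levels are uncertain. *Ifi204*, an interferon-induced DNA sensor that is not in the list, was at 10.6, 7.2 and 4.92 RPKM in WT and 242, 56.2 and 71.1 RPKM in DKI MDCs (log2 fold change 3.60, SE 0.57, adjusted p = 0.0243). Without DKI replicate 1, 13 members were higher and 1 was lower, and without DKI replicate 2 there were 13 higher. With the replicate block 11 were higher. With any of the others left out, at most 2 were called, 0 of them without WT replicate 3.

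Factors of the interferon response bind the letters GAAANNGAAA or, on the other strand, TTTCNNTTTC. At least 1 copy was in the promoters of 25 of the 35 interferon-stimulated members with a promoter in the table (71.4%), and in 322 of the 7942 fitted genes (4.05%), where copies may overlap. Among the called genes it was in 21 of 218 higher (9.63%) and 11 of 382 lower (2.88%). The window of *Rsad2* holds a copy from base 131, in capitals, and is shown as that of a called member.
Rsad2 chr12:26456403-26456702 (-): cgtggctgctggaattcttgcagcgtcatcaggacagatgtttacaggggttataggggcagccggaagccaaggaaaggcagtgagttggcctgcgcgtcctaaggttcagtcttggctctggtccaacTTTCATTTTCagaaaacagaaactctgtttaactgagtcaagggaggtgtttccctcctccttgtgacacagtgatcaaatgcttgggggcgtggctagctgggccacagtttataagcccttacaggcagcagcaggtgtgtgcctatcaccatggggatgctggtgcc

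Markers of other cells differed between libraries and, in part, between genotypes. The summed level of 13 neutrophil markers was 140 to 1098 RPKM in WT and 525 to 3687 RPKM in DKI MDCs, and 11 of the 13 were highest in DKI replicate 1, with *S100a8* (1203 RPKM), *S100a9* (1331 RPKM), *Ngp* (273 RPKM), *Prtn3* (33.1 RPKM), *Elane* (25.1 RPKM) and *Mpo* (10.5 RPKM) among them. *Cxcr2* was highest in WT replicate 3 (16.7 RPKM) and *Mmp8*, a heatmap gene, in DKI replicate 2 (774 RPKM). DKI replicate 1 also had the highest *Ly6c2*, a marker of monocytes (158 RPKM), and the highest *Col1a1* (17.6 RPKM) and *Col1a2* (13.1 RPKM), which fibroblasts express. The 10 T cell markers summed to 1.54 to 4.58 RPKM in WT and 0.853 to 60.3 RPKM in DKI MDCs. In DKI replicate 1, *Cd4* was at 59.4 RPKM, and in DKI replicate 2 *Cd3g* was at 8.79 and *Cd2* at 3.18 RPKM, while *Cd3e* and *Trac* were at most 0.11 RPKM in any library. The 7 markers of plasmacytoid dendritic cells summed to 140.0 to 197 RPKM in WT and 156 to 969 RPKM in DKI MDCs, mostly from *Bst2*, which is also induced by interferon and was at 954 RPKM in DKI replicate 1. *Cox6a2* was at 34.5 RPKM in DKI replicate 3, *Tcf4* at most at 18.3 RPKM, and the defining marker *Siglech* at most at 0.06 RPKM. Genotypes lay apart in the sums of mast cell and basophil markers, 46.2 to 152 RPKM in WT and 24.3 to 35.7 RPKM in DKI MDCs, and of B cell and plasma cell markers, 5.30 to 8.04 RPKM in WT and 8.61 to 26.3 RPKM in DKI MDCs. The erythroid and platelet sums lay apart too, at 67.0 to 184 RPKM in WT and 561 to 2938 RPKM in DKI MDCs, mostly from the heatmap gene *Pf4*, which macrophages also express. The globin genes of the list were at 0, but the treatment of reads shared between genes is not given. The sums of NK cell markers were 5.79 to 20.02 RPKM in WT and 1.504 to 7.67 RPKM in DKI MDCs and overlapped, whereas *Klrk1* of that list was at 18.8, 5.57 and 14.1 RPKM in WT and 4.05, 1.14 and 2.56 RPKM in DKI MDCs. The part of these cells in the results was not tested.

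**Figure D4:**
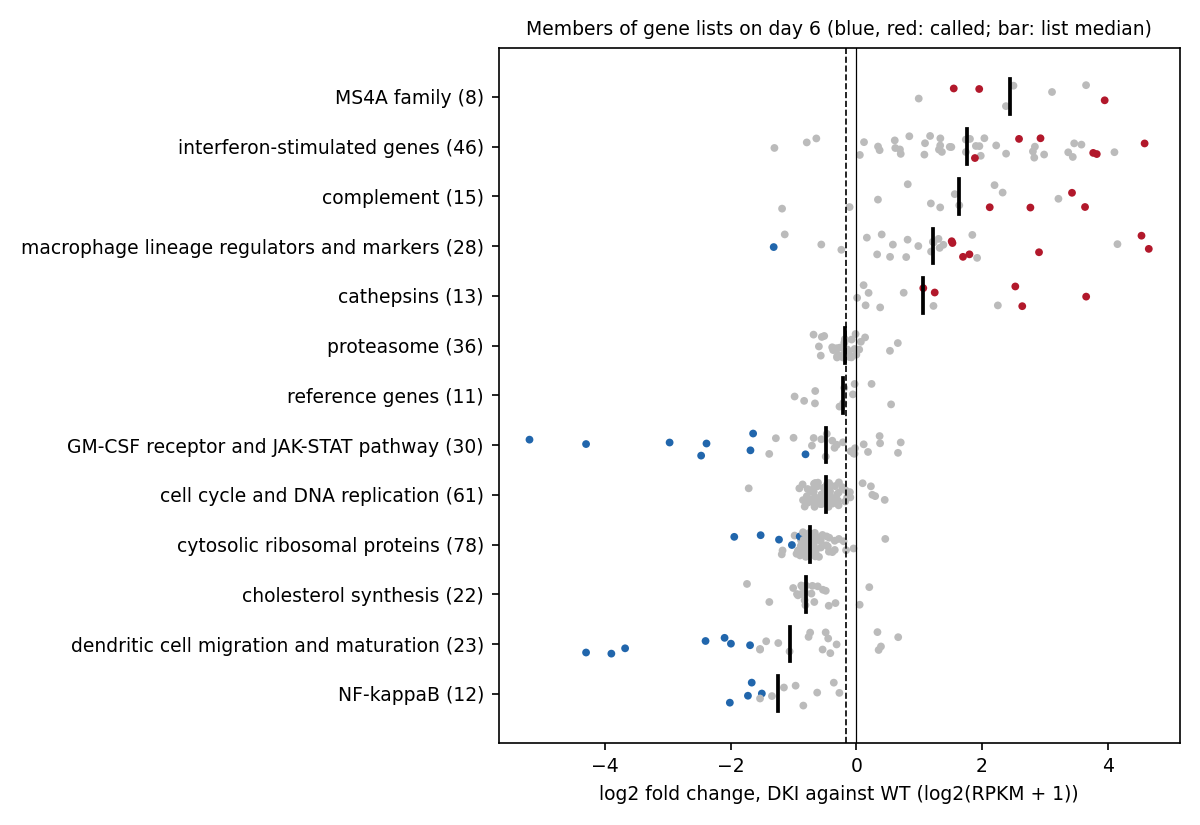
Log2 fold change of each fitted member of 13 gene lists (x axis), with the number of fitted members in parentheses, called members in blue (lower) or red (higher), a bar at the list median and the dashed line at the median of all genes (−0.17). The MS4A, interferon, complement, macrophage and cathepsin lists have medians of 1.07 or above, and the NF-kappaB and dendritic cell maturation lists of −1.06 or below.

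Complement genes had a median of 1.64 over 15 fitted members. Of the 15, 4 were higher and 0 lower, against 2.72% and 4.82% of all fitted genes. Of the 4, *C3ar1* and *C5ar1* are heatmap genes. *Cd93*, a receptor once described as one for C1q, was at 7.11, 28.7 and 7.27 RPKM in WT and 160.1, 104 and 148 RPKM in DKI MDCs (log2 fold change 3.43, SE 0.52, adjusted p = 0.0231). *C5ar2*, a C5a receptor, was at 1.36, 1.33 and 0.492 RPKM in WT and 10.1, 5.06 and 9.09 RPKM in DKI MDCs (log2 fold change 2.12, SE 0.31, adjusted p = 0.0205). The genes of C1q themselves were not called, with *C1qa* at 832, 13.8 and 17.9 RPKM in WT and 2385, 235 and 333 RPKM in DKI MDCs (log2 fold change 3.22, SE 1.69, adjusted p = 0.260), so that WT replicate 1 exceeded 2 of the DKI libraries. In each same-numbered pair *C1qa* was higher in DKI, but it was not called with the replicate block. In the list of matrix genes 3 of 18 were higher, against 2.72% of all fitted genes. *Timp2*, an inhibitor of matrix proteases, was at 17.7, 6.67 and 4.15 RPKM in WT and 122, 83.8 and 72.8 RPKM in DKI MDCs (log2 fold change 3.34, SE 0.48, adjusted p = 0.0197). *Ecm1*, a secreted matrix protein, was at 15, 16.6 and 8.24 RPKM in WT and 94.8, 99.8 and 117 RPKM in DKI MDCs (log2 fold change 2.93, SE 0.27, adjusted p = 0.00746). Without 1 library, 1 complement gene was called without WT replicate 1, WT replicate 3 or DKI replicate 3, and 2 without DKI replicate 1. The matrix genes called were 2 without WT replicate 1 and 1 without WT replicate 3, DKI replicate 1 or DKI replicate 3.

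Other higher genes had varied roles. In the list of cytokines 2 of 26 fitted members were lower and 4 were higher, against 4.82% and 2.72% of all fitted genes. The list had a median of 0.33. Without WT replicate 1, WT replicate 3 or DKI replicate 3 the counts were 1 and 1. *Hgf*, the hepatocyte growth factor (Entrez gene 15234, chromosome 5, 16553495 to 16619439), was at 2.13, 3.14 and 2.03 RPKM in WT libraries and 16.9, 28.4 and 37.3 RPKM in DKI libraries (log2 fold change 3.0, SE 0.30, adjusted p = 0.00803). *Ednrb*, an endothelin receptor, was at 0.0354, 0.594 and 0.172 RPKM in WT and 10.8, 9.96 and 39.3 RPKM in DKI MDCs (log2 fold change 3.80, SE 0.52, adjusted p = 0.0183). *Dhrs3*, a retinal reductase, was at 8.65, 9.03 and 13 RPKM in WT and 172, 61.1 and 218 RPKM in DKI MDCs (log2 fold change 3.59, SE 0.47, adjusted p = 0.0162). *Csf3r*, the G-CSF receptor of neutrophils and monocytes, was at 1.84, 1.78 and 0.335 RPKM in WT and 39.9, 11.1 and 9.53 RPKM in DKI MDCs (log2 fold change 2.98, SE 0.58, adjusted p = 0.0362), with the highest value in DKI replicate 1. *Fos* and *Jun*, of the AP-1 factors, had log2 fold changes of 3.03 and 1.31. Their list, which also holds EGR and MAPK feedback genes, had a median of −0.03, and 10 of its 19 fitted members were negative. *Hmox1*, which breaks down heme, was at 52.6, 79.6 and 57.6 RPKM in WT and 203, 186 and 183 RPKM in DKI MDCs (log2 fold change 1.60, SE 0.20, adjusted p = 0.0143). *Slc28a2*, a nucleoside transporter, was at 0.0952, 0.316 and 0.245 RPKM in WT and 8.21, 5.78 and 5.88 RPKM in DKI MDCs (log2 fold change 2.63, SE 0.21, adjusted p = 0.00637).

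Of 78 fitted genes of cytosolic ribosomal proteins, 77 had negative values, down to −1.94, against 66.5% of all fitted genes. The list median was −0.74, and 5 were called lower, against 4.82% of all fitted genes. An unadjusted p under 0.05 was found for 51 of the 78, against 2778 of the 9842 fitted genes, and the genotypes lay apart for 53 of the 78, against 37.2% of all fitted genes. After median centring the list median was −0.60, and 2 were called. *Rpsa* was at 45.9, 32.1 and 52.4 RPKM in WT and 11.7, 13.6 and 17.8 RPKM in DKI MDCs (log2 fold change −1.52, SE 0.24, adjusted p = 0.0239), and *Rpl37* had a log2 fold change of −1.23 (adjusted p = 0.0317, 0.0568 after centring). *Rpl8*, the member with the second highest mean, was at 1205, 844 and 1189 RPKM in WT and 653, 601 and 779 RPKM in DKI MDCs and was not called (log2 fold change −0.66, SE 0.24, adjusted p = 0.128). Without WT replicate 2, 18 members were called, and without WT replicate 1, WT replicate 3, DKI replicate 1 or DKI replicate 3 none was called by limma. Genes of ribosomal proteins have many processed pseudogenes, and the handling of shared reads is not stated.

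Of 51 lists other than those of cell markers, 12 had 0 members called by limma without the replicate block. With it, 3 ATF4 targets, 1 chemokine and 1 cell cycle gene were lower and 2 chemokine receptors were higher among these lists. They included the cell cycle and DNA replication (61 fitted, 3 with an unadjusted p under 0.05, median −0.49), cholesterol synthesis (22 fitted, 1 under 0.05, median −0.81), the proteasome (36 fitted, 5 under 0.05, median −0.18) and autophagy (18 fitted, 4 under 0.05, median 0.03). The cell cycle list differed between pairs, with medians of −0.16, 0.20 and −1.52, as did cholesterol synthesis, with −0.90, 0.01 and −1.34. Without DKI replicate 2, 3 cell cycle genes and 6 genes of cholesterol synthesis were lower. Reference genes had 0 calls by limma of 11 fitted, 4 with an unadjusted p under 0.05, and a median of −0.21. *Actb* was at 3839, 4382 and 5884 RPKM in WT and 2482, 3063 and 2316 RPKM in DKI MDCs (log2 fold change −0.83, SE 0.27, adjusted p = 0.109), and *Fth1*, the ferritin heavy chain and among the most abundant transcripts in both genotypes, at 5909.9, 9275 and 4874 RPKM in WT and 11992, 7999.7 and 9222 RPKM in DKI MDCs (log2 fold change 0.58, SE 0.35, adjusted p = 0.326).

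*Stat5a* and *Stat5b* are neighbours on chromosome 11, where genes near them can differ between the strains by linked alleles. Of the 130 fitted genes within 5 Mb of the start of *Stat5a*, *Stat5a* itself included, 10 were lower and 5 higher (11.5%). Within 1 Mb 4 of 41 were called, within 10 Mb 19 of 190, and on the rest of chromosome 11 the share was 7.90%. Over the autosomes the share ranged from 3.77% on chromosome 18 to 10.9% on chromosome 6. The neighbours *Thra* and *Nr1d1*, a thyroid hormone receptor and a clock repressor that overlap on opposite strands, were called higher. *Thra* was at 3.21, 4.58 and 2.68 RPKM in WT and 8.64, 10.9 and 9.25 RPKM in DKI MDCs (log2 fold change 1.26, SE 0.20, adjusted p = 0.0244) and *Nr1d1* at 0.914, 1.12 and 0.49 RPKM in WT and 4.18, 4.5 and 3.41 RPKM in DKI MDCs (log2 fold change 1.46, SE 0.22, adjusted p = 0.0217). *Mllt6* had a log2 fold change of −1.66 and *Smarce1*, a subunit of a chromatin remodeller, of −0.93 (adjusted p = 0.0352, 0.0588 with the replicate block). A linked allele and the mutation itself cannot be told apart here.

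**Figure D5:**
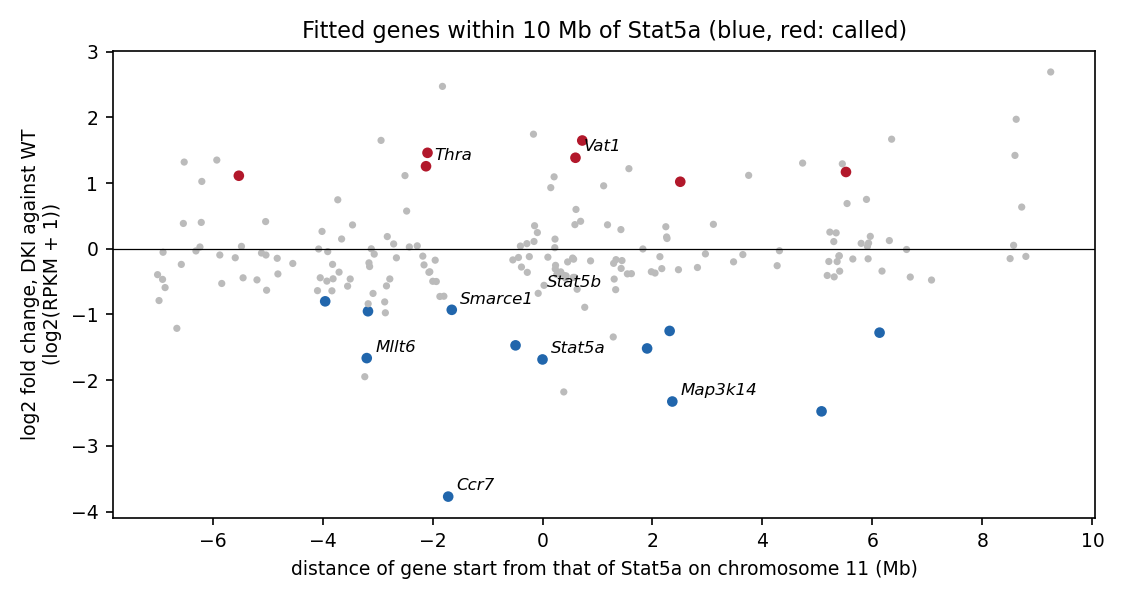
Log2 fold change on day 6 (y axis) of each fitted gene within 10 Mb on chromosome 11 against the distance of its start from that of *Stat5a* (x axis, Mb), with called genes in blue (lower) or red (higher). The 19 called genes of the 190 shown lie on both sides of *Stat5a* and in both directions.

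The day 6 differences were compared with those of the other days. Of the 742 genes, 518 were also fitted on day 0, where the median size of their log2 fold change was 0.06 and 1 gene exceeded 1, against a median of 1.58 for the 742 genes on day 6. In a fit of the 12 libraries of both days, the genotype difference differed between day 6 and day 0 for 290 of 10353 genes (2.8%, limma interaction, adjusted p under 0.05), 197 lower and 93 higher on day 6, and for 1550 genes with the replicate block. Of the 742 genes 283 were among the 290. They include *Il2ra*, *Lta*, *Ctsl* and *Maf*. Of the 742 genes, 712 were fitted on day 3 and 711 of these had the same sign there, with a median size of 1.43. The difference between day 6 and day 3 passed the test for 0 of 9985 genes by limma, 89 had an unadjusted p under 0.05, and 175 with the replicate block. Both counts are below what a limit of 0.05 gives by chance, and the fits did not pair libraries across days. The count of 0 therefore does not show that the differences on day 3 and day 6 were equal.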

How the data were processed

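RPKM values were deposited by the authors in 1 column per library, made from single-end reads that Subread had placed on mm10 and featureCounts had assigned to RefSeq genes. Versions, strandedness and the treatment of reads shared between genes are not given in the sources used here. The values were used as deposited. Gene positions are from RefSeq (GRCm38.p6), matched by Entrez identifier for 20082 of 20298 genes. Of chromosome X the table holds 66 genes.

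Genes whose mean exceeded 2 RPKM in either genotype were fitted on log2(RPKM + 1) with limma 3.58.1 (lmFit, eBayes with trend) in R 4.3.3, on the 6 libraries of day 6. Differences between days were tested as interactions on 12 libraries. P-values measure the spread of 3 libraries per group, which come from 3 experiments according to the series description. The fit was tested on simulated data. edgeR, which the study used, needs counts and was not run. Figures were made with Python 3.11.15 and matplotlib 3.10.9.

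Deviations of same-numbered WT and DKI libraries from their group means correlated at 0.34, 0.41 and 0.41, so the numbers were taken to pair the samples. In the library names, replicate 1 carries an earlier year than the others. The block is given where it changes the call of a gene given with values or moves a list's count by over 1.5 times.

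Depth was estimated from single-exon genes, where 147 of 163 low values (90.2%) were whole reads within 0.05 reads, against 10% by chance. The level of 3 reads covers counting error only. Intervals of log2 fold changes rest on the SE of the fit and so, like the p-values, measure the spread between libraries.

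The members, the 62 gene lists and the tests were chosen with earlier results of these data known, and are not independent of them. Genes were named by rule: the 15 largest fold changes per direction and the 10 largest changes in RPKM, up to 4 called and the 2 most abundant members of each list with a call, *Stat5a*, *Stat5b*, the 5 most abundant genes per genotype, and called genes within 5 Mb of *Stat5a*. Those given are a selection of these, and *Emp1*, *Serpinb6a*, *Gdpd1*, *Socs1*, list members named without values and marker genes were added after their values were seen. Alternatives were other pseudocounts (0.1 and 0.5), filters, scalings, sample sets, weights, the block and the omission of each library.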

Additional observations from a re-analysis of the deposited data

Results flagged for a closer look

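By the interaction test of limma at an adjusted p under 0.05, the genotype difference on day 6 differed from that on day 0 for 290 of 10353 genes. The values below are the log2 fold change on day 6 minus that on day 0. They are a description, since the genes were chosen for their difference on day 6, and some entered the day 6 fit through 1 genotype only. In the JAK-STAT and NF-kappaB lists they were −5.13 for *Il2ra*, −4.38 for *Socs2*, −2.40 for *Jak2*, −1.56 for *Socs1* and −1.50 for *Nfkb1*, with −2.53 for *Map3k14*. Dendritic cell genes had −3.65 for *Fscn1*, −3.99 for *Cacnb3*, −2.47 for *Tmem123* and −1.87 for *Zbtb46*. Other lower genes had −4.16 for *Tnfrsf9*, −3.91 for *Lta*, −4.55 for *Hepacam2*, −4.56 for *Cd300e*, −4.19 for *Mycl*, −3.95 for *Enah*, −4.10 for *Septin4*, −3.96 for *Car4*, −2.20 for *Napsa*, −3.29 for *Tarm1*, −2.57 for *Olr1*, −3.05 for *Slc27a3*, −2.30 for *Bmf*, −2.0 for *Il18r1* and −1.42 for *Rpsa*.

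Among the higher genes, the values were 4.64 for *Folr2*, 4.57 for *Maf*, 2.88 for *Cd300ld*, 2.07 for *Lyz2* and 2.07 for *Trem2*. Lysosomal genes had 3.68 for *Ctsl*, 2.61 for *Ctsb*, 2.72 for *Ctsd* and 1.51 for *Lamp1*. Interferon-induced genes had 4.42 for *Rtp4*, 3.72 for *Rsad2*, 2.53 for *Oas2* and 3.53 for *Ifi204*. The remaining values were 3.24 for *Timp2*, 2.82 for *Ecm1*, 3.91 for *Ednrb*, 3.93 for *Dhrs3*, 3.00 for *Hgf*, 3.04 for *Csf3r*, 2.60 for *Slc28a2*, 1.69 for *Serpinb6a* and 1.29 for *Thra*. Of 78 called genes given with values, 47 passed this test and 31 did not, among them *Cish*, *Stat4*, *Rel*, *Nfkb2*, *Nfkbia*, *Cst3*, *Ms4a7*, *Cd68*, *Clec7a*, *Oasl2*, *Cd93*, *Fos* and *Jun*.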

How the results depend on the processing

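The numbers of lower and higher genes depended on the setting. Lower genes were 127 without the filter on low values and 255 with a mean above 2 RPKM required in both genotypes, and higher genes were 60 and 168, in tests of 15926 and 9032 genes. Median centring and quantile normalization gave 285 and 310 lower genes, and centring together with the replicate block, added after the data were seen, gave 295. Fits of all 18 libraries and of the 12 MDC libraries gave 1054 and 876 lower and 519 and 452 higher genes. Leaving out 1 library gave 63 to 655 lower and 27 to 329 higher genes. The count of genes that differed between day 6 and day 0 rose from 290 to 1550 with the replicate block. The replicate block left the counts of 474 lower and 268 higher genes at 434 and 285, but 13 of the 78 called genes listed for this check lost their call. Under the 20 settings, the sign of the log2 fold change was kept by each of the 86 genes listed for this check in every fit that held it. The genotypes lay apart in each of the 78 called genes. Leaving out a library or changing the pseudocount, block or weights could thus not turn their sign. Of 1704 combinations of gene and setting, 315 lost a call. Of the 78 genes that were called, 22 kept their call under every setting with all 6 libraries. The cause of these changes was not tested. Depth limits values below about 0.1 RPKM on a gene of 1 kb.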

Other observations

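Genes of the mitochondrial genome had lower summed levels in DKI MDCs, although 0 passed the test by limma. The summed RPKM of the 13 fitted genes was 17744, 14297 and 17844 in WT and 8783, 9029 and 10032 in DKI MDCs, so that the groups did not overlap. All 13 had a negative log2 fold change, against 66.5% of all fitted genes, with a median of −0.87 (−0.72 after median centring). *ATP6*, *COX2*, *COX3* and *ND3* passed the threshold in WT only, so their sign follows from the rule. The count of 13 is therefore not support for a direction. These genes were at most at 14.9 RPKM in any library. *mt-Rnr1* and *mt-Rnr2* encode ribosomal RNA. The genotypes lay apart for 12 of the 13, against 37.2% of all. The adjusted p from limma ran from 0.0505 to 0.192, with an unadjusted p under 0.05 for 12. With the replicate block 2 of the 13 were called lower. Nuclear genes of the respiratory chain had a median of −0.26 over 70 fitted members, with 1 called lower, a call lost with the replicate block and after median centring.

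Of 155 fitted solute carriers, a large group of transporters, 8 were lower, 10 were higher and 137 were not called, with a median of 0.09. Of all fitted genes 4.82% were lower and 2.72% higher. *Slc27a3*, of the fatty acid transport family, was at 54.7, 24.5 and 41.9 RPKM in WT and 3.72, 3.65 and 3.47 RPKM in DKI MDCs (log2 fold change −3.09, SE 0.28, adjusted p = 0.00746), and *Slc7a8*, an amino acid transporter, at 8.53, 7.35 and 5.44 RPKM in WT and 80.7, 28.1 and 32.8 RPKM in DKI MDCs (log2 fold change 2.43, SE 0.40, adjusted p = 0.0268). Without WT replicate 1 or WT replicate 3, 1 solute carrier was lower and 1 higher, without DKI replicate 1 the counts were 2 and 6, and without DKI replicate 3 they were 3 and 1. Genes with a Zfp name, most of which encode zinc finger factors, had 7 lower and 0 higher of 208 fitted members, with a median of −0.20, close to that of all genes. After median centring 2 were lower and 1 was higher, and without WT replicate 1, WT replicate 3, DKI replicate 1 or DKI replicate 3 none was called by limma.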
